A study of Mus musculus with 50 samples.

Results

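The shared subunits of COMPASS complexes are the proteins that the SET1 and MLL histone methyltransferases hold in common or share in pairs. The genes described here were taken by name from a list of *Wdr5*, *Ash2l*, *Rbbp5*, *Dpy30*, *Cxxc1*, *Wdr82*, *Hcfc1*, *Men1*, *Paxip1* and *Ncoa6*. All 10 were found among the 55487 genes counted, each with 1 identifier, and all 10 were among the 16336 protein-coding genes with enough counts to be tested.

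RNA of frontal cortex was sequenced in 50 libraries, with 5 mice of either genotype, wild-type or Setd1a+/-, for every one of 5 ages. The study's methods name frontal brain regions as the tissue taken from embryos, and frontal cortex as that taken at the postnatal ages. This difference coincides with that between embryonic and postnatal ages. Its part in changes from an embryonic to a postnatal age cannot be told apart from that of age. Setd1a+/- mice carried 1 constitutive loss-of-function allele (tm1d) of *Setd1a*, the catalytic subunit of a SET1 complex, in every cell, and wild-type mice, which were littermates at the postnatal ages, carried none. The labels give the strain as C57BL/6NTac and the embryonic ages as E14 and E18, whereas the study's methods give a mixed C57BL/6NTac and C57BL/6J background, male mice and plug-timed embryos that they date slightly later than the labels do, with P7, P35 and P70 as the postnatal ages in both. Total counts per library ranged from 35507165 to 43907318, and a tested subunit held between 390 and 15698 counts in a library. Levels are given as CPM, the usual count scaled to library size, here over the tested genes after TMM scaling, and, where genes are compared with each other, as RPKM, the same value per kilobase of annotated exon.

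COMPASS complexes place methyl groups on lysine 4 of histone H3 at promoters and enhancers. Each complex joins 1 catalytic subunit (SETD1A, SETD1B or a KMT2 protein) to a core of WDR5, RBBP5, ASH2L and DPY30, without which the catalytic subunits have little activity. Further subunits set where a complex acts: CXXC1 reads unmethylated CpG and WDR82 binds RNA polymerase II in SET1 complexes, HCFC1 joins SET1 and some MLL complexes, menin (MEN1) joins the KMT2A and KMT2B complexes, and PAXIP1 and NCOA6 join the KMT2C and KMT2D complexes. Variants in genes of these complexes cause disorders of brain development.

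Some libraries stood apart. At E14 wild-type replicate 5, and at E18 wild-type replicate 2, held at least 55644 counts of *Xist*, the RNA of the inactive X chromosome, against at most 27 in the other 48 libraries, which bears on the X-linked *Hcfc1*. They held at most 11 counts summed over 4 Y-linked genes, against at least 4711 in each of the others, whereas the methods describe male mice. Wild-type replicate 2 at P7 held 61.1 CPM summed over 5 hindbrain genes, of which *En2* was the most abundant, against at most 0.470 CPM in the other 4 wild-type libraries of that age. Its summed CPM was 1277 for 5 oligodendrocyte genes and 615 for 4 choroid plexus genes, the highest of its group. Neuronal genes (*Rbfox3*, *Snap25*, *Syt1*, *Map2* and *Tubb3*, with *Tubb3* the most abundant in 30 libraries and *Snap25* in the other 20) summed to at least 2178 CPM in every library, with 0 of the 5 at a count of 0, which checks for nervous tissue and not for the region of the brain. Striatal genes (*Drd1*, *Drd2*, *Adora2a*, *Ppp1r1b* and *Rgs9*, with *Ppp1r1b* the most abundant in 49 libraries) summed to 54.4 to 84.6 CPM at E14, 106 to 157.7 at E18, 60.8 to 207 at P7, 473 to 722 at P35 and 222 to 811 at P70 in wild-type libraries. In Setd1a+/- libraries they summed to 62.0 to 85.9 CPM at E14, 134 to 243 at E18, 90.9 to 301 at P7, 333 to 820.1 at P35 and 353 to 887 at P70, so the sum varied between libraries of a group in both genotypes.

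At E18 the summed level of the 4 choroid plexus genes (*Ttr*, *Aqp1*, *Folr1* and *Kl*) was 239 and 197 CPM in wild-type replicates 3 and 4, with *Ttr* the most abundant and 0 of the 4 at a count of 0, against at most 12.4 CPM in the other 3 wild-type libraries and 9.71 CPM in the 5 Setd1a+/- libraries. The choroid plexus is the tissue in the ventricles that makes cerebrospinal fluid. The same 2 libraries were the highest of the 10 at E18 for 4 endothelial genes, *Cldn5*, *Pecam1*, *Flt1* and *Kdr* (337 and 293 CPM, others at most 230.2) and for 4 erythroid genes (348 and 419.7 CPM, others at most 215, *Hbb-bs* the most abundant in each), so leaving them out removes more than choroid plexus RNA. At E14 the choroid plexus sum ran from 0.734 to 384 CPM in wild-type and from 6.49 to 453 CPM in Setd1a+/- libraries. Endothelial genes summed to 516 CPM in Setd1a+/- replicate 2 at E14, where *Cldn5* was the most abundant, against at most 193.5 CPM in the other 9 libraries of that age. Erythroid genes at E14 summed to 337, 293, 294, 461 and 961 CPM in the 5 wild-type and 234, 717, 896, 821 and 841 CPM in the 5 Setd1a+/- libraries, with 4 of 5 Setd1a+/- libraries above 4 of 5 wild-type libraries. The part of these tissues in the genotype differences was not tested beyond the omissions of libraries given below.

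The targeted gene did not fall. In wild-type cortex, the 5 libraries held 129, 129.8, 136, 119.1 and 118.9 CPM of *Setd1a* at E14 and 93.4, 95.6, 94.5, 85.3 and 99.97 CPM at E18. They held 72.5, 76.2, 70.1, 70.6 and 71.3 CPM at P7, 91.6, 82.3, 81.6, 84.6 and 85.2 CPM at P35 and 84.4, 88.6, 84.7, 81.5 and 92.0 CPM at P70. *Setd1a* in Setd1a+/- libraries was at 150.1, 136, 128, 139.6 and 130.02 CPM at E14 and 104, 117, 96.9, 104 and 113 CPM at E18. It was at 81.9, 78.3, 76.4, 83.4 and 83.7 CPM at P7, 91.8, 88.1, 88.3, 89.4 and 91.5 CPM at P35 and 81.9, 86.0, 81.4, 76.6 and 97.8 CPM at P70. Every Setd1a+/- library at E18, P7 and P35 lay above the wild-type median of its age, as did 4 of 5 at E14 and 2 of 5 at P70, and the ranges of the genotypes overlapped at every age but P7. Across ages *Setd1a* was higher in Setd1a+/- cortex, with 0.10 as log2 fold change and 0.025 as its standard error (adjusted p = 0.00677, edgeR quasi-likelihood test with Benjamini-Hochberg adjustment over all tested genes), and 21 of 25 Setd1a+/- libraries lay above the wild-type mean of their age. The log2 fold change was 0.098 without the 2 *Xist* libraries (adjusted p = 0.0182, edgeR), 0.10 without these and wild-type replicate 2 at P7 (adjusted p = 0.0165, edgeR) and 0.093 without wild-type replicates 3 and 4 at E18 (adjusted p = 0.0172, edgeR). Counts were summed over all exons, not over the part that the allele removes, and 52.3% of the exon bases are also annotated to other genes and were counted for both, so these values do not check the genotype labels.

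All 10 subunits changed with age in wild-type cortex (edgeR joint test of the 4 age differences), as did 95% of the tested genes, so this count alone does not set them apart. All 10 were lower at P70 than at E14, where 42.9% of the tested genes were called lower. The median log2 difference was -0.87 over the 10 subunits and -0.0020 over the 16336 tested genes. In Setd1a+/- cortex, measured in other mice, all 10 were again lower at P70 than at E14, against 43% of tested genes. In bulk tissue, fewer cells of a type and less RNA per cell cannot be told apart. Nor can age be told apart from the tissue taken between E14 and P70, since the methods name different tissue for embryos.

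**Figure D1:**
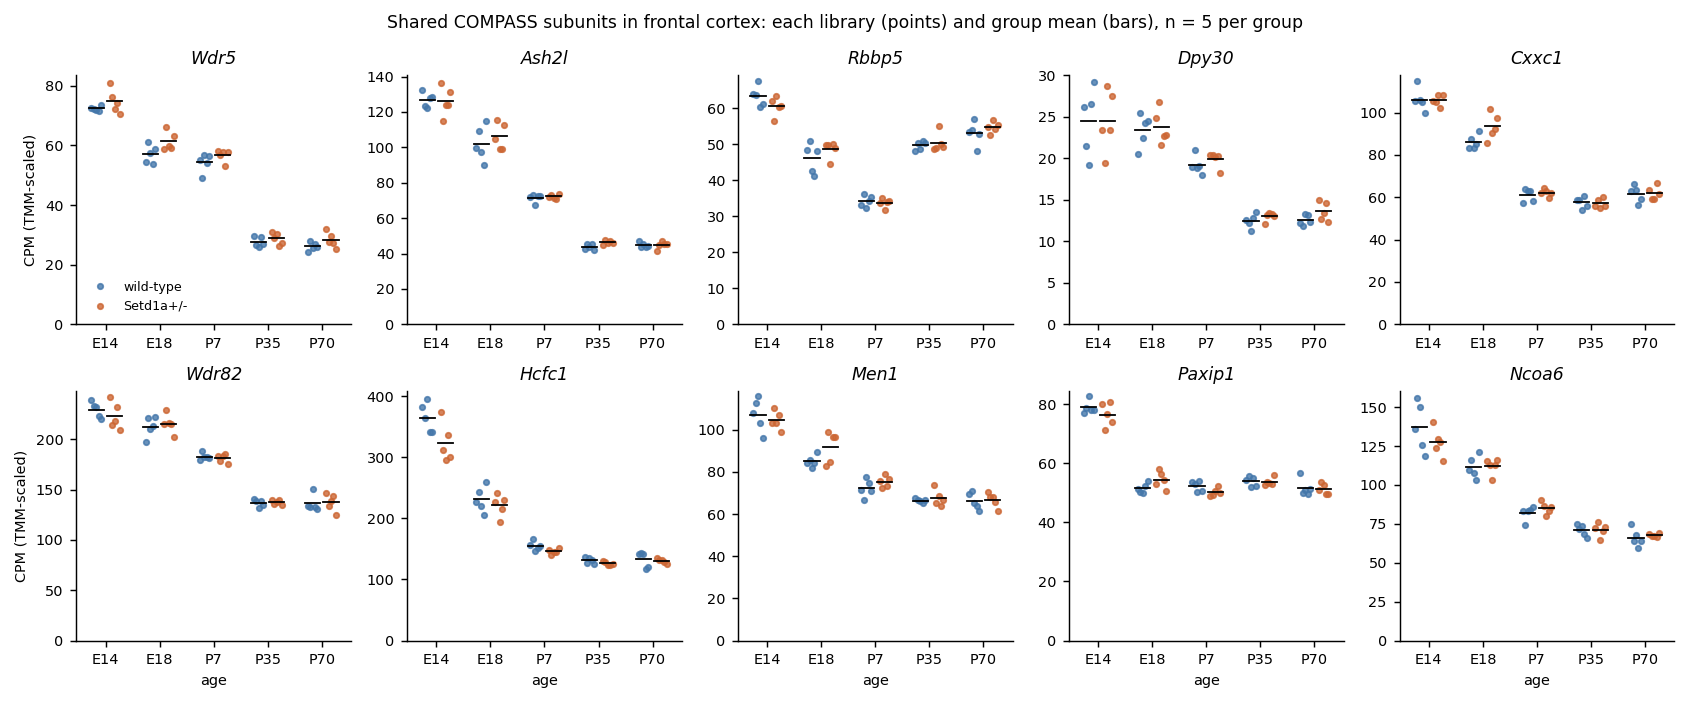
Level of each shared subunit (CPM after TMM scaling, vertical axis from 0) at the 5 ages; points are libraries, bars are means of 5, blue is wild-type and orange is Setd1a+/-. Most subunits step down from E14 to P35, while *Rbbp5* is lowest at P7 and *Paxip1* stays near its E18 level.

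*Wdr5* encodes the WD40 protein that docks the catalytic subunit on the core. In wild-type cortex, the 5 libraries held 72.7, 72.1, 71.9, 71.6 and 73.7 CPM of *Wdr5* at E14 and 54.5, 61.2, 57.5, 53.6 and 58.7 CPM at E18. They held 55.0, 49.1, 56.7, 54.2 and 56.3 CPM at P7, 29.5, 26.5, 25.9, 29.4 and 27.02 CPM at P35 and 24.3, 28.1, 25.7, 26.9 and 26.0 CPM at P70. *Wdr5* in Setd1a+/- libraries was at 80.9, 76.1, 72.1, 74.1 and 70.7 CPM at E14 and 58.6, 66.3, 59.8, 59.0 and 63.1 CPM at E18. It was at 58.2, 56.9, 57.9, 53.1 and 57.8 CPM at P7, 31.0, 28.8, 30.3, 26.3 and 27.4 CPM at P35 and 32.0, 27.8, 29.6, 27.4 and 25.2 CPM at P70. The fall between P7 and P35 left no overlap between the libraries of these ages in either genotype. The log2 difference of P35 against P7 was -0.97 in wild-type with a standard error of 0.054 (adjusted p = 2.11e-20, edgeR) and -0.98 in Setd1a+/- cortex (adjusted p = 1.40e-20, edgeR), the largest step of any of the 10 subunits. Between E18 and P7 it was -0.074 in wild-type, with a 95% interval of -0.18 to 0.032, and did not pass the test, though it was called with libraries scaled by size alone (-0.13, adjusted p = 0.0144, edgeR). In Setd1a+/- cortex it was -0.11 (adjusted p = 0.0559, edgeR) and was called in 33 of 50 fits that left out 1 library and with library size scaling, limma-voom or without the 2 *Xist* libraries and wild-type replicate 2 at P7.

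*Ash2l*, whose protein pairs with RBBP5 to stimulate the methyltransferase, fell at 3 successive steps. In wild-type cortex, the 5 libraries held 132.4, 123, 122, 128 and 128 CPM of *Ash2l* at E14 and 99.7, 109, 97.1, 89.8 and 115 CPM at E18. They held 72.0, 73.1, 67.6, 72.3 and 72.5 CPM at P7, 42.5, 45.2, 43.9, 45.4 and 41.96 CPM at P35 and 47.1, 43.7, 45.6, 43.5 and 44.5 CPM at P70. Wild-type libraries of E14, E18, P7 and P35 did not overlap from each age to the next, and the total difference from E14 to P70 was -1.50 on the log2 scale (standard error 0.049, adjusted p = 1.25e-29, edgeR). In Setd1a+/- cortex the libraries of E14 (at least 114.9 CPM) and E18 (at most 115.5 CPM) overlapped. Those of E18 and P7, and of P7 and P35, did not. *Dpy30*, whose protein binds ASH2L, had the fewest counts of the core genes. Its wild-type mean was 24.5 ± 4.07 CPM (SD, n = 5) at E14, 19.2 ± 1.11 at P7 and 12.6 ± 0.619 at P70. It did not pass the test between E14 and E18 (log2 difference -0.063, 95% interval -0.24 to 0.11) and fell at the steps to P7 and P35.

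*Rbbp5* went the other way after P7. In wild-type cortex, the 5 libraries held 63.8, 63.5, 67.5, 60.2 and 61.1 CPM of *Rbbp5* at E14 and 48.3, 51.0, 42.6, 41.1 and 48.1 CPM at E18. They held 33.1, 36.2, 32.4, 34.3 and 35.4 CPM at P7, 48.1, 50.4, 48.8, 51.0 and 50.4 CPM at P35 and 53.4, 54.0, 56.9, 48.1 and 52.7 CPM at P70. *Rbbp5* in Setd1a+/- libraries was at 62.1, 56.3, 63.4, 60.4 and 60.6 CPM at E14 and 49.7, 49.7, 44.6, 49.96 and 49.0 CPM at E18. It was at 33.6, 34.96, 31.9, 34.0 and 34.3 CPM at P7, 48.8, 48.8, 55.0, 50.1 and 49.2 CPM at P35 and 54.7, 52.6, 56.8, 54.2 and 55.2 CPM at P70. The 5 libraries at P7 were the lowest of each genotype, and every library at P35 and P70 lay above every library at P7. Levels fell from E14 to E18 and from E18 to P7 and then rose, with a log2 difference of P35 against P7 of 0.54 in wild-type (standard error 0.048, adjusted p = 2.03e-13, edgeR) and 0.58 in Setd1a+/- cortex (adjusted p = 1.95e-14, edgeR). Within a library, the ratio of *Rbbp5* to *Ash2l* RPKM was 1.08 to 1.26 at E14, 1.05 to 1.13 at P7, 2.53 to 2.74 at P35 and 2.52 to 2.85 at P70 in wild-type, and 1.02 to 1.09 at P7 and 2.33 to 2.72 at P35 in Setd1a+/- cortex. This ratio was singled out after the values were seen and was not tested. Its level at an age rests on the annotated exon lengths of both genes.

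**Figure D2:**
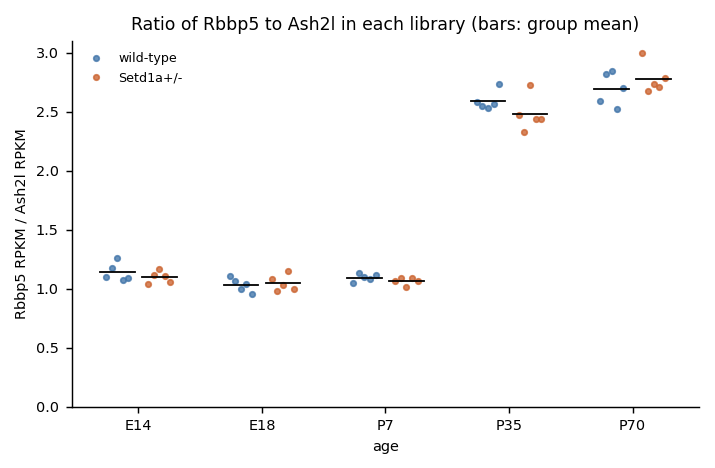
Ratio of *Rbbp5* RPKM to *Ash2l* RPKM within each library (vertical axis from 0) by age; points are libraries, bars are means of 5, blue is wild-type and orange is Setd1a+/-. Libraries at E14, E18 and P7 sit near 1 and those at P35 and P70 above 2 in both genotypes.

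Of the SET1 subunits, *Cxxc1* fell from 106 ± 5.53 CPM (SD, n = 5) at E14 to 86.2 ± 3.36 at E18 and 61.1 ± 3.04 at P7 in wild-type cortex, and was 61.6 ± 3.92 at P70. Its difference of P35 against P7 was -0.084 in wild-type (95% interval -0.18 to 0.0072) and -0.12 in Setd1a+/- cortex (adjusted p = 0.0157, edgeR). With RNA integrity as a covariate the wild-type difference was called (-0.11, adjusted p = 0.0276, edgeR), and likewise when libraries were scaled by size alone (-0.18, adjusted p = 3.51e-04, edgeR). *Wdr82* fell from 229.5 ± 7.85 CPM at E14 to 137 ± 3.78 at P35. Its fall from E14 to E18 (-0.11, adjusted p = 0.0194, edgeR) lost its call when scaled by library size (-0.059, adjusted p = 0.156), with the filter of 10 CPM (-0.066, adjusted p = 0.111), with all annotated genes (-0.071, adjusted p = 0.163), and without wild-type replicate 1 at E14 (-0.093, adjusted p = 0.0619) or at E18 (-0.084, adjusted p = 0.0860), and without wild-type replicates 3 and 4 at E18 together (-0.10, adjusted p = 0.0730).

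*Hcfc1* encodes a scaffold protein on the X chromosome that also serves cell cycle transcription factors. In wild-type cortex, the 5 libraries held 382, 364, 395, 341 and 341 CPM of *Hcfc1* at E14 and 227, 243, 220.4, 205.6 and 259 CPM at E18. They held 157.2, 167, 147, 152 and 154 CPM at P7, 137, 127, 135, 132.3 and 126 CPM at P35 and 142, 144, 142, 117 and 121 CPM at P70. *Hcfc1* in Setd1a+/- libraries was at 374, 313, 296, 336 and 301 CPM at E14 and 226, 242, 194.3, 215 and 230.3 CPM at E18. It was at 149, 140.5, 145, 145 and 152 CPM at P7, 130.1, 128, 123, 124 and 126 CPM at P35 and 136, 131.9, 132.6, 129 and 125 CPM at P70. Libraries at E14 were the highest of each genotype and did not overlap those at E18, which did not overlap those at P7. *Hcfc1* fell by 0.66 from E14 to E18, by 0.57 from E18 to P7 and by 0.24 from P7 to P35 on the log2 scale in wild-type cortex (adjusted p = 1.59e-12, 3.76e-11 and 6.11e-04, edgeR).

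*Men1* fell from 107 ± 7.88 CPM (SD, n = 5) at E14 to 72.1 ± 4.202 at P7 in wild-type cortex. Its further difference from P7 to P35 (-0.12, adjusted p = 0.0330, edgeR) lost its call with the filter of 10 CPM (-0.10, adjusted p = 0.0508) and when wild-type replicate 3 or 4 at P7 or replicate 3, 4 or 5 at P35 was left out (log2 differences -0.093, -0.11, -0.12, -0.11 and -0.12, adjusted p = 0.123, 0.0776, 0.0571, 0.0634 and 0.0509). *Paxip1*, a BRCT-domain protein that also acts at DNA breaks, fell between E14 and E18 in wild-type cortex. In wild-type cortex, the 5 libraries held 77.1, 78.5, 82.8, 78.1 and 77.9 CPM of *Paxip1* at E14 and 51.4, 50.3, 49.9, 52.1 and 53.9 CPM at E18. They held 53.6, 52.9, 50.1, 53.9 and 50.6 CPM at P7, 54.3, 55.5, 51.9, 55.0 and 52.3 CPM at P35 and 56.7, 50.002, 50.8, 49.7 and 51.4 CPM at P70. Every wild-type library at E14 lay above every later one, and the ranges from E18 to P70 overlapped. In Setd1a+/- cortex the ranges at P7 (at most 52.3 CPM) and P35 (at least 52.6 CPM) did not overlap, and the differences called after E18 are given below. In wild-type cortex the log2 difference of E18 against E14 was -0.62 (standard error 0.038, adjusted p = 2.19e-17, edgeR), and that of P7 against E18 was 0.020 with a 95% interval of -0.058 to 0.097. *Ncoa6*, a coactivator of nuclear receptors, fell from 137 ± 15.6 CPM at E14 to 82.02 ± 4.59 at P7 and 66.0 ± 5.83 at P70.

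Step by step, 9 of the 10 subunits fell from E14 to E18 in wild-type cortex, against 34.1% of the tested genes, 8 fell from E18 to P7, against 33.4%, and 7 fell from P7 to P35, against 34.3%. *Rbbp5* alone of the 10 rose at the last of these steps, against 32.6% of the tested genes. Between P35 and P70, 0 of 10 were called in either direction by edgeR, against 1.05% of the tested genes, and 1 had an unadjusted p under 0.05, against 11.3%. In Setd1a+/- cortex, 8 of 10 fell from E14 to E18 (32.5% of the tested genes), 9 fell from E18 to P7 (35%), and 8 fell and 2 rose from P7 to P35 (33.3% and 34.5%), the second riser being *Paxip1*. Between P35 and P70, 0 of 10 were called by edgeR in Setd1a+/- cortex, against 2.98%, and 2 had an unadjusted p under 0.05, against 16.2%. limma-voom and DESeq2 also called 0 of 10 between P35 and P70 in both genotypes. Their shares of all tested genes are not given here, so these counts are not read as a result about the subunits. In Setd1a+/- cortex the call of *Paxip1* at P7 against E18 (-0.12) was lost with DESeq2 size factors (-0.078, adjusted p = 0.0712, edgeR), the DESeq2 test (-0.078, adjusted p = 0.0695) and the filter of 10 CPM (-0.076, adjusted p = 0.0665, edgeR). Its call at P35 against P7 (0.096) was lost with scaling by library size (0.026, adjusted p = 0.588, edgeR) and without Setd1a+/- replicate 5 at P35 (0.083, adjusted p = 0.0732, edgeR) or replicate 1 at P7 (0.090, adjusted p = 0.0556, edgeR), and that of *Ncoa6* at E18 against E14 (-0.18) was lost with RNA integrity as a covariate (-0.15, adjusted p = 0.0545, edgeR). Leaving out the 2 *Xist* libraries and wild-type replicate 2 at P7 changed no other call of a subunit between ages than that of *Wdr5* given above, and leaving out wild-type replicates 3 and 4 at E18 none other than that of *Wdr82*.

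**Figure D3:**
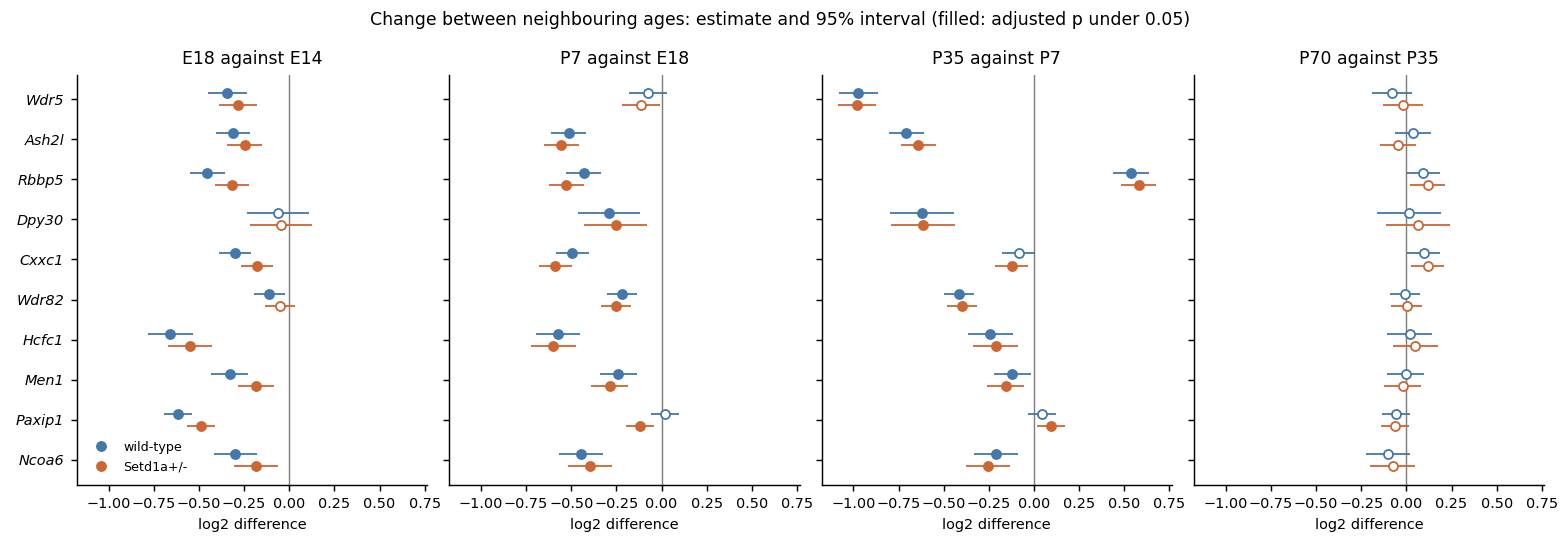
Log2 difference between neighbouring ages (horizontal axis) with its 95% interval for each subunit; blue is wild-type, orange is Setd1a+/-, and filled points have an adjusted p under 0.05 in edgeR. Estimates lie left of 0 up to P35 except for *Rbbp5* and *Paxip1*, and around 0 from P35 to P70.

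Per length, the order of the subunits changed with age. In wild-type cortex at E14 it was *Hcfc1* at 43.6 ± 2.90 RPKM (SD, n = 5), *Wdr82* at 36.2 ± 1.24, *Men1* at 27.9 ± 2.06, *Cxxc1* at 27.05 ± 1.41, *Dpy30* at 21.4 ± 3.55, *Wdr5* at 20.1 ± 0.230, *Rbbp5* at 16.1 ± 0.725, *Ash2l* at 14.1 ± 0.462, *Ncoa6* at 14.1 ± 1.61 and *Paxip1* at 7.68 ± 0.219. Neighbours whose libraries overlapped were *Men1* with *Cxxc1*, *Cxxc1* with *Dpy30*, *Dpy30* with *Wdr5*, and *Ash2l* with *Ncoa6*. At P70 it was *Wdr82* at 21.5 ± 1.32 RPKM, *Men1* at 17.3 ± 1.01, *Hcfc1* at 15.9 ± 1.58, *Cxxc1* at 15.7 ± 0.998, *Rbbp5* at 13.5 ± 0.811, *Dpy30* at 10.98 ± 0.540, *Wdr5* at 7.28 ± 0.395, *Ncoa6* at 6.77 ± 0.598, *Paxip1* at 5.04 ± 0.279 and *Ash2l* at 5.005 ± 0.166. There the libraries of *Men1* and *Hcfc1*, *Hcfc1* and *Cxxc1*, *Cxxc1* and *Rbbp5*, *Wdr5* and *Ncoa6*, and *Paxip1* and *Ash2l* overlapped. Annotated exon bases ran from 1146 for *Dpy30* to 10271 for *Paxip1*, and the length of the RNA present was not measured. The order between genes at an age therefore rests on the annotation.

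Cell type markers were compared over the same ages. At P70 against E14 in wild-type cortex, 42.9% of the tested genes were called lower and 42.8% higher. All 6 of 6 progenitor genes (*Sox2*, *Pax6*, *Hes5*, *Eomes*, *Mki67* and *Top2a*, with *Sox2* the most abundant in 32 of the 50 libraries and *Top2a* in 15) were called lower at P70 than at E14 in wild-type cortex, and their summed level was 1158, 968, 1242, 1271 and 1408 CPM in the 5 libraries at E14 and 419, 473, 348, 333 and 424 CPM at E18. It was 184, 365, 131.2, 163.4 and 154 CPM at P7, 87.9, 86.9, 82.1, 98.9 and 79.1 CPM at P35 and 75.8, 75.2, 63.9, 89.5 and 79.5 CPM at P70, with 0 of the 6 at a count of 0 in any library. All 5 of 5 oligodendrocyte genes, with *Mbp* the most abundant in 44 of 50 libraries, were called higher, with sums of 53.8, 56.2, 49.5, 48.1 and 39.7 CPM at E14 and 125, 119.7, 55.5, 85.9 and 56.4 CPM at E18. These sums were 159.95, 1277, 122, 174 and 159.3 CPM at P7, 5135, 5740.5, 4918, 4923 and 5111 CPM at P35 and 3925, 3932, 3249, 3756 and 3828 CPM at P70. All 5 of 5 astrocyte and 5 of 5 microglial genes were also called higher, as were 3 of 5 neuronal genes, while 1 of 5 neuronal genes was called lower. Striatal genes were called higher in 5 of 5 cases (median log2 difference 2.53), as was the 1 hindbrain gene of 5 that was tested, and endothelial genes were split, with 1 of 4 higher and 1 of 4 lower. The neuronal and endothelial counts are not far from the shares of all tested genes and are not read as a shift of those cells. In the direction of the subunits, erythroid genes were called lower in 4 of 4 cases (median -1.78) and choroid plexus genes in 3 of 4 (median -2.84), with the other choroid plexus gene called higher. The part of these cell types in the fall of the subunits was not tested.

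The comparison by genotype asks whether mice with 1 *Setd1a* allele change the transcripts of its partners. Across ages, 1 of the 10 subunits was called, against 4.43% of the tested genes, and 2 had an unadjusted p under 0.05, against 14.5%. *Wdr5* was higher in Setd1a+/- cortex by 5.54% (95% interval 2.21% to 8.98%), or 0.078 on the log2 scale with a standard error of 0.023 (adjusted p = 0.0364, edgeR). limma-voom and DESeq2 also called *Wdr5* alone of the 10. Their shares of all tested genes are not given here, so this bears on the call of *Wdr5* and not on the subunits as a set. The Setd1a+/- mean lay above the wild-type mean at 5 of 5 ages and 19 of 25 Setd1a+/- libraries lay above the wild-type mean of their age, but the ranges of the genotypes overlapped at every age. The call was close to the threshold. Over 12 other settings its adjusted p ranged from 0.0118 to 0.0710 and its log2 fold change from 0.070 to 0.083. It was lost with all annotated genes (adjusted p = 0.0505), without wild-type replicates 3 and 4 at E18 (0.072, adjusted p = 0.0710), at an adjusted p under 0.01, and in 14 of 50 fits that left out 1 library, where the adjusted p ranged from 0.0169 to 0.0618 and the log2 fold change from 0.070 to 0.085. Without the 2 *Xist* libraries the log2 fold change was 0.083 (adjusted p = 0.0301, edgeR), without these and wild-type replicate 2 at P7 it was 0.077 (adjusted p = 0.0456, edgeR), and without wild-type replicate 2 at P7 alone it was 0.072 (adjusted p = 0.0586, edgeR).

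The libraries whose omission ended the call of *Wdr5*, each with the adjusted p without it (edgeR), were Setd1a+/- replicate 1 at E14 (0.0601), wild-type replicate 1 at E18 (0.0563), wild-type replicate 4 at E18 (0.0542), Setd1a+/- replicate 2 at E18 (0.0585), Setd1a+/- replicate 5 at E18 (0.0504), wild-type replicate 2 at P7 (0.0586), Setd1a+/- replicate 1 at P7 (0.0506), wild-type replicate 2 at P35 (0.0511), wild-type replicate 3 at P35 (0.0546), Setd1a+/- replicate 1 at P35 (0.0597), Setd1a+/- replicate 3 at P35 (0.0537), wild-type replicate 1 at P70 (0.0576), Setd1a+/- replicate 1 at P70 (0.0618) and Setd1a+/- replicate 3 at P70 (0.0558). Leaving out a library also altered the filter, with 16403 to 16425 genes tested, and in 38 of 50 such fits the library that TMM took as reference, which had changed in 11 of these 14. In those 11 the part of the library itself and that of the scaling cannot be told apart. The reference was the same in the other 3, those without Setd1a+/- replicate 1 at E14, wild-type replicate 1 at E18 or wild-type replicate 2 at P7.

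*Hcfc1* was the other subunit with a low p. Its mean was lower in Setd1a+/- cortex at 5 of 5 ages, and 22 of 25 Setd1a+/- libraries lay below the wild-type mean of their age, with overlapping ranges at every age. Across ages it differed by -5.47% (95% interval -8.97% to -1.84%), or -0.081 on the log2 scale with a standard error of 0.027, and missed the threshold (adjusted p = 0.0815, edgeR). It passed with libraries scaled by size alone (-0.089, adjusted p = 0.0198) and with replicate number as a block (-0.080, adjusted p = 0.0386), and without Setd1a+/- replicate 1 at E14 (adjusted p = 0.0403), wild-type replicate 4 at E18 (adjusted p = 0.0474) or wild-type replicate 4 at P70 (adjusted p = 0.0391). Over 12 settings other than leaving out 1 library the adjusted p ranged from 0.0198 to 0.143. Without the 2 *Xist* libraries it was -0.081 (adjusted p = 0.105, edgeR), and without these and wild-type replicate 2 at P7 it was -0.076 (adjusted p = 0.143, edgeR). Without wild-type replicates 3 and 4 at E18 it passed (-0.094, adjusted p = 0.0284, edgeR). Where replicate 1 of Setd1a+/- at E14 or replicate 4 of wild-type at E18 was left out, *Hcfc1* was called and *Wdr5* was not.

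Under 3 omissions of 2 or 3 libraries that stood apart, edgeR called 1 subunit by genotype across ages, but not always *Wdr5*. It was *Wdr5* without the 2 *Xist* libraries, against 4.03% of 16407 tested genes, and without these and wild-type replicate 2 at P7, against 4.22% of 16388. It was *Hcfc1* without wild-type replicates 3 and 4 at E18, against 4.69% of 16517. This last omission was chosen after the data were seen, including that leaving out replicate 4 alone ended the call of *Wdr5*. All 10 subunits were called lower at P70 than at E14 in wild-type cortex under each of these 3 omissions. With all libraries kept, 42.9% of the tested genes were called lower in that comparison, and the share under the omissions is not given here.

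The other 8 subunits did not pass, and their intervals bound the differences. They ran from -0.923% to 5.12% for *Ash2l*, -2.29% to 3.77% for *Rbbp5*, -1.90% to 8.90% for *Dpy30* and -0.924% to 4.89% for *Cxxc1*. They ran from -2.62% to 2.40% for *Wdr82*, -0.723% to 5.76% for *Men1*, -2.999% to 1.95% for *Paxip1* and -3.76% to 3.82% for *Ncoa6*. The median log2 fold change was 0.019 over the 10 subunits and 0.0012 over all tested genes.

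At single ages, 0 of 10 subunits were called by genotype in edgeR at E14, E18, P7, P35 or P70, against 0.129%, 0.11%, 0.735%, 0% and 0.233% of the tested genes. An unadjusted p under 0.05 was found for 1, 3, 0, 0 and 1 of them, against 11.6%, 11.4%, 8.86%, 3.37% and 6.55% of the tested genes. limma-voom and DESeq2 also called 0 of 10 at each age. Of the single ages, their counts over all tested genes are given only for P35, below, so these counts are not read as a result about the subunits. At E14 the log2 fold change of *Hcfc1* was -0.17 (95% interval -0.29 to -0.049, adjusted p = 0.188, edgeR), and it was called without Setd1a+/- replicate 1 (adjusted p = 0.0325). At E18 the subunits with a low unadjusted p were *Cxxc1* (0.12, 95% interval 0.028 to 0.21, adjusted p = 0.287, edgeR), *Men1* (0.11, 95% interval 0.010 to 0.21, adjusted p = 0.380, edgeR) and *Paxip1* (0.080, 95% interval 0.0031 to 0.16, adjusted p = 0.415, edgeR), each with a positive log2 fold change. At P70 that of *Wdr5* was 0.12 (95% interval 0.0091 to 0.23, adjusted p = 0.689, edgeR). The joint test of the 4 interaction terms of age and genotype called 0 of 10 subunits and 0% of the tested genes in edgeR, with 0 subunits at an unadjusted p under 0.05 and 0 called by limma-voom or DESeq2, so no difference between ages in the genotype effect was shown for a subunit. Over all tested genes, limma-voom called 0 and DESeq2 21 for the interaction, and at P35 limma-voom called 0 and DESeq2 11 by genotype, with 551 at an unadjusted p under 0.05 in edgeR.

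At single ages, the share of all tested genes called by genotype moved with the libraries that stood apart. Without the 2 *Xist* libraries the share of tested genes called at E14 was 4.85%, and 7.1% without wild-type replicate 2 at P7 as well, yet 0 of 10 subunits were called by edgeR in either case, with 2 at an unadjusted p under 0.05, *Hcfc1* and *Ncoa6*, against 22% and 23.8% of tested genes. The log2 fold change of *Hcfc1* at E14 was then -0.20 (adjusted p = 0.0629, edgeR) and -0.20 (adjusted p = 0.0504, edgeR). At E18 0 of 10 were called by edgeR in either case, against 0.469% of tested genes without the *Xist* libraries and 1.17% without replicate 2 at P7 as well. In both, 4 were at an unadjusted p under 0.05 (*Wdr5*, *Rbbp5*, *Cxxc1* and *Men1*, all with a positive log2 fold change), against 13.5% and 15.5% of tested genes. At P7 the share was 0.0549% of tested genes without these 3 libraries, with 0 of 10 subunits called by edgeR and 0 at an unadjusted p under 0.05, against 4.64%. Without wild-type replicates 3 and 4 at E18, 0 of 10 subunits were called at E18 by edgeR, against 0.0484% of tested genes, and 0 had an unadjusted p under 0.05, against 6.44%. There the log2 fold change was 0.097 for *Cxxc1*, 0.088 for *Men1* and 0.071 for *Paxip1*. For the interaction, edgeR called 0 of 10 subunits under each of the 3 omissions, with 0 at an unadjusted p under 0.05, while it called 12 of the tested genes (0.0731%) without the *Xist* libraries, 50 (0.305%) without these and replicate 2 at P7, and 0 without the 2 at E18. limma-voom and DESeq2 were not run with these libraries left out.

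**Figure D4:**
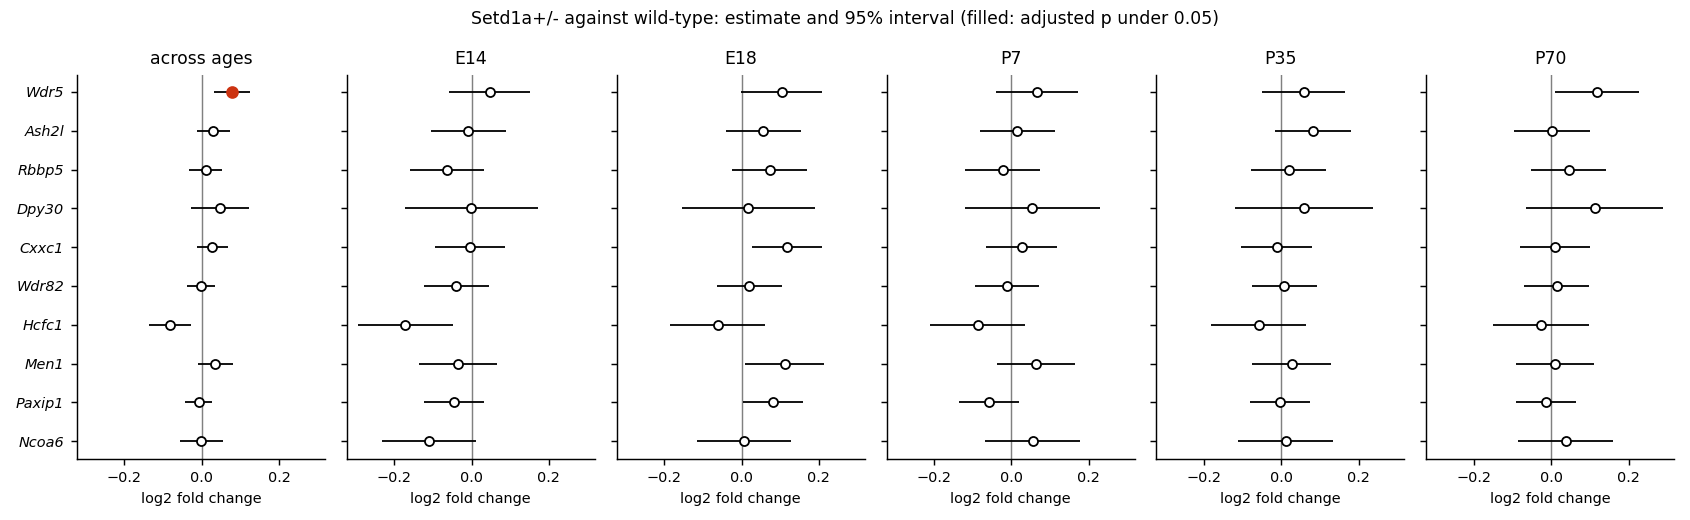
Log2 fold change of Setd1a+/- against wild-type (horizontal axis) with its 95% interval for each subunit, across ages and at each age; the filled point has an adjusted p under 0.05 in edgeR. *Wdr5* lies right of 0 and *Hcfc1* left of 0 in all 6 panels.

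The 6 catalytic subunits that the shared subunits serve were also lower at P70 than at E14 in wild-type cortex, 6 of 6 called against 42.9% of the tested genes, with a median log2 difference of -0.86. The differences were -0.55 for *Setd1a*, -1.35 for *Setd1b*, -0.68 for *Kmt2a*, -1.30 for *Kmt2b*, -1.05 for *Kmt2c* and -0.66 for *Kmt2d*. By genotype, 1 of 6 was called across ages, *Setd1a* itself, against 4.43% of the tested genes. The log2 fold change was -0.043 (95% interval -0.13 to 0.042) for *Setd1b*, -0.0021 (-0.11 to 0.10) for *Kmt2a*, 0.013 (-0.043 to 0.069) for *Kmt2b*, -0.032 (-0.11 to 0.042) for *Kmt2c* and -0.014 (-0.11 to 0.083) for *Kmt2d*.

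Of 7 other subunits and processing enzymes, 4 were called lower and 1 higher at P70 than at E14 in wild-type cortex, against 42.9% and 42.8% of the tested genes, with a median log2 difference of -0.33, and 1 was called by genotype, against 4.43%. The riser was *Tasp1*, the protease that cleaves KMT2A and KMT2B (1.41, adjusted p = 5.64e-21, edgeR). *Pagr1a*, a partner of PAXIP1, was lower in Setd1a+/- cortex at a log2 fold change of -0.085 with a standard error of 0.024 (adjusted p = 0.0249, edgeR) and had the smallest age difference of the list (0.057), but 98.7% of its exon bases are shared with *Gm42742* and reads of the genes cannot be told apart. *Pagr1a* (chr7:127015033-127017352) also lies near the targeted *Setd1a* (chr7:127776670-127800122), and the part of this position in its genotype difference was not tested. Of 11 partners of the subunits outside COMPASS, 9 were called lower at P70 than at E14, against 42.9% of the tested genes, with a median log2 difference of -0.57. By genotype 0 were called by edgeR, limma-voom or DESeq2, against 4.43% of the tested genes in edgeR, and 1 had an unadjusted p under 0.05, against 14.5%. Under each of the 3 omissions of libraries above, edgeR called 1 catalytic subunit (*Setd1a*), 1 of the 7 (*Pagr1a*) and 0 of the 11 by genotype. The largest age difference was that of *Dnmt1*, the maintenance DNA methyltransferase (-2.21, adjusted p = 9.90e-33, edgeR), and the smallest that of *Bap1*, a deubiquitinase that binds HCFC1 (-0.044, 95% interval -0.13 to 0.042).

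The tested gene whose 5 wild-type age means of log2 CPM, centred on their mean, lay closest to those of a subunit was *Ogfr* for *Wdr5* (0.0395 in wild-type and 0.0486 in Setd1a+/-), *Trim27* for *Ash2l* (0.0157 in wild-type and 0.0425 in Setd1a+/-), *Itch* for *Rbbp5* (0.0284 in wild-type and 0.0543 in Setd1a+/-), *Dnpep* for *Dpy30* (0.0136 in wild-type and 0.0859 in Setd1a+/-) and *Dbr1* for *Cxxc1* (0.0137 in wild-type and 0.0994 in Setd1a+/-), where the numbers are root mean square log2 differences over the 5 ages. The wild-type number is the smallest over all tested genes and was used to choose the gene, and the Setd1a+/- number was not. The closest gene was *Surf6* for *Wdr82* (0.0190 in wild-type and 0.0322 in Setd1a+/-), *Ccnk* for *Hcfc1* (0.0264 in wild-type and 0.0212 in Setd1a+/-), *Mmadhc* for *Men1* (0.0125 in wild-type and 0.0623 in Setd1a+/-), *Lin54* for *Paxip1* (0.0299 in wild-type and 0.0617 in Setd1a+/-) and *Ist1* for *Ncoa6* (0.0123 in wild-type and 0.0638 in Setd1a+/-). In 0 of 10 cases was the closest gene another subunit. The subunits are so few among the 16336 tested genes that this count says little about how alike their age courses are.

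Promoters are shown for *Wdr5* and *Hcfc1*, which fell with age and had the lowest p by genotype, and for *Rbbp5*, which rose after P7. RefSeq promoter windows of 300 bases on GRCm38.p6 were given for 8 of the 10 subunits, with none for *Ash2l* and *Cxxc1*. Capitals mark matches, on either strand, to CCGGAAG (ETS), GCATGCG (NRF1), GGGCGG (SP), CCAAT (NFY), AAGATGG (YY1) or ACTACAA (ZFP143), which 8.86%, 3.58%, 35.7%, 37.4%, 6.34% and 3.24% of 32851 promoter windows hold. The windows of *Wdr5* (chr2:27514897-27515196, plus strand), *Rbbp5* (chr1:132477117-132477416, plus strand) and *Hcfc1* (chrX:73966308-73966607, minus strand) hold 22, 16 and 21 CpG, against a median of 7 over all windows. Fewer CpG than these are held by 76.9%, 67.0% and 75.2% of all windows, so many windows hold as many or more.
Wdr5: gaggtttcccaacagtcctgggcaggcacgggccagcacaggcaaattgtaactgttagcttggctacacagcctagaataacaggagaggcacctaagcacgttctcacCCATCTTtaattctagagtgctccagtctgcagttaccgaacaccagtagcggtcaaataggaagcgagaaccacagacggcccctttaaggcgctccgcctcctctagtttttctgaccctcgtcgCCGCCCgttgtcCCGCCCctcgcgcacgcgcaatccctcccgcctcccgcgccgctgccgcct
Rbbp5: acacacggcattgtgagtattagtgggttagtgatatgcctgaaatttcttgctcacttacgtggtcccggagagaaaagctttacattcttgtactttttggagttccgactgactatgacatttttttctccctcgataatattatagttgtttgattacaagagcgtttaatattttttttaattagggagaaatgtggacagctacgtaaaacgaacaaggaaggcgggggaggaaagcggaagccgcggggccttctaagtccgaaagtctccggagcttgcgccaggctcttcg
Hcfc1: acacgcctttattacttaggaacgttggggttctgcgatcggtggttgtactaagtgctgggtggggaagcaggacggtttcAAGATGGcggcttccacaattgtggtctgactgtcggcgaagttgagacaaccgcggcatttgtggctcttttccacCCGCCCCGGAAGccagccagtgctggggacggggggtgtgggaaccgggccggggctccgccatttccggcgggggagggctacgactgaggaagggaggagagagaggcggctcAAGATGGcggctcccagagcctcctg
The window of *Wdr5* held 2 SP matches and 1 YY1 match, that of *Hcfc1* held 1 ETS, 1 SP and 2 YY1 matches, of which the ETS and SP matches overlap, and that of *Rbbp5* held 0 matches to the 6 motifs. These matches describe the letters of the windows only.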

How the data were processed

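The authors trimmed reads with Trimmomatic, aligned them to GRCm38 with STAR and counted fragments on exons with featureCounts 1.4.6-p2. The deposited values are raw counts for 55487 genes in 50 libraries, without normalization, with no use of strand and with a fragment on several genes counted for each.

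Genes were named from the GENCODE vM21 primary assembly annotation, which holds 55227 of them, 21974 protein-coding. Protein-coding genes passing edgeR's filterByExpr (minimum count 10) were kept, 16336 in all. After TMM scaling, edgeR 4.0.16 in R 4.3.3 fitted the counts by the quasi-likelihood method, with age and genotype as additive terms for the genotype effect and with 10 group means for effects at each age, changes between ages and the joint tests. P-values were adjusted by the Benjamini-Hochberg method over all tested genes, and an adjusted p under 0.05 was called. Intervals are 95%. Log2 CPM used a prior count of 2. The fits were tested on simulated data.

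The members and the gene lists were chosen with earlier results of these data known. Genes named were the 10 subunits, the 6 catalytic subunits, genes of the other lists called by genotype or with the largest or smallest age difference, and the gene nearest each subunit in its wild-type age course. Alternatives were DESeq2 size factors, library size scaling, limma-voom (limma 3.58.1), DESeq2 1.42.0, no filter, at least 10 CPM in 5 libraries, all annotated genes, RNA integrity, a replicate block, an adjusted p under 0.01, and leaving out libraries, of which the omission of wild-type replicates 3 and 4 at E18 was chosen after seeing the data. Total counts were 35507165 to 43907318 per library. 1 list of marker genes is not reported here. Python 3.11.15 with matplotlib 3.10.9 drew the figures.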

Additional observations from a re-analysis of the deposited data

Results flagged for a closer look

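In groups of 5 libraries, a value was picked out when its gap to the nearest other took an unusually large share of the range of the group. Chance alone picks out about 1 in 20 groups. Of 110 groups of subunit and *Setd1a* values, 12 were picked out. They were *Wdr5* in Setd1a+/- at P7 replicate 4 (53.1 CPM, below the nearest other at 56.9, gap share 0.754), *Ash2l* in wild-type at P7 replicate 3 (67.6 CPM, below the nearest other at 72.0, gap share 0.796), *Rbbp5* in Setd1a+/- at E18 replicate 3 (44.6 CPM, below the nearest other at 49.0, gap share 0.816), *Rbbp5* in Setd1a+/- at P35 replicate 3 (55.0 CPM, above the nearest other at 50.1, gap share 0.783), *Dpy30* in Setd1a+/- at P7 replicate 5 (18.2 CPM, below the nearest other at 20.1, gap share 0.864) and *Dpy30* in Setd1a+/- at P35 replicate 1 (12.03 CPM, below the nearest other at 13.1, gap share 0.738). The others were *Wdr82* in wild-type at P70 replicate 3 (151 CPM, above the nearest other at 134, gap share 0.834), *Paxip1* in wild-type at E14 replicate 3 (82.8 CPM, above the nearest other at 78.5, gap share 0.754), *Paxip1* in wild-type at P70 replicate 1 (56.7 CPM, above the nearest other at 51.4, gap share 0.7497), *Paxip1* in Setd1a+/- at P35 replicate 5 (55.9 CPM, above the nearest other at 53.5, gap share 0.731), *Ncoa6* in wild-type at P7 replicate 2 (74.0 CPM, below the nearest other at 83.0, gap share 0.775) and *Ncoa6* in Setd1a+/- at E18 replicate 3 (103 CPM, below the nearest other at 113, gap share 0.760).

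Of 100 groups of summed marker lists, 18 were picked out. Wild-type replicate 2 at P7 accounted for 6 of them, namely progenitors (365 CPM, nearest other 184, gap share 0.776), neurons (3179 CPM, nearest other 4421, gap share 0.839), astrocytes (1379 CPM, nearest other 1126, gap share 0.761), oligodendrocytes (1277 CPM, nearest other 174, gap share 0.955), choroid plexus (615 CPM, nearest other 5.77, gap share 0.996) and hindbrain (61.1 CPM, nearest other 0.470, gap share 0.992). The others were astrocytes in wild-type at E14 replicate 1 (139.8 CPM, nearest other 157.5, gap share 0.765), oligodendrocytes in wild-type at P35 replicate 2 (5740.5 CPM, nearest other 5135, gap share 0.736), oligodendrocytes in wild-type at P70 replicate 3 (3249 CPM, nearest other 3756, gap share 0.742), endothelium in Setd1a+/- at E14 replicate 2 (516 CPM, nearest other 193.5, gap share 0.780), erythroid cells in wild-type at E14 replicate 5 (961 CPM, nearest other 461, gap share 0.749), erythroid cells in Setd1a+/- at E14 replicate 1 (234 CPM, nearest other 717, gap share 0.729), erythroid cells in Setd1a+/- at P7 replicate 2 (253 CPM, nearest other 144, gap share 0.713), erythroid cells in wild-type at P7 replicate 5 (269 CPM, nearest other 154, gap share 0.777), choroid plexus in Setd1a+/- at E18 replicate 2 (1.68 CPM, nearest other 7.72, gap share 0.751), choroid plexus in Setd1a+/- at P70 replicate 3 (35.03 CPM, nearest other 6.56, gap share 0.906), choroid plexus in wild-type at P70 replicate 4 (11.4 CPM, nearest other 4.45, gap share 0.858) and striatum in Setd1a+/- at E18 replicate 4 (243 CPM, nearest other 163.9, gap share 0.724). The part of these libraries in the genotype differences of the subunits was not tested beyond leaving libraries out.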

How the results depend on the processing

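Of 16 counts of subunits called, 14 stayed within 1.5 times under every alternative run. The count by genotype across ages was 1 and became 0 at an adjusted p under 0.01 and with all annotated genes, and 2 with library size scaling and with the replicate block. Leaving out 1 library, which can also change the filter and the TMM reference library, gave 0 to 2, and for the genotype effect at E14 gave 0 to 1 against 0. The causes were not tested. Log2 fold changes near 0 changed sign. That of *Rbbp5* became -0.0072 without wild-type replicates 3 and 4 at E18. That of *Wdr82* became 0.0035 with DESeq2 size factors, 0.0033 with DESeq2 and 0.0014 with the filter of 10 CPM, and changed sign in 19 of 50 fits without 1 library (-0.0071 to 0.0062). That of *Ncoa6* became 0.0047 with DESeq2 size factors, 0.0019 with limma-voom, 0.0044 with DESeq2, 0.0032 with the filter of 10 CPM, 6.7e-04 with all annotated genes, 8.4e-04 with RNA integrity and 0.0013 with the replicate block, and changed sign in 26 of 50 (-0.0083 to 0.012). Same-numbered libraries of the genotypes deviated together with r over 0.1 in 9 of 25 pairs (range -0.207 to 0.460, median 0.0645). Libraries of different number were not compared in this way, so whether the number pairs the mice cannot be told. With the replicate block, 2 subunits were called by genotype across ages, *Wdr5* and *Hcfc1*, and 0 at any single age or for the interaction. The shares of all tested genes called with the block or with library size scaling are not given here. A rise in calls over all genes was therefore not set apart from one among the subunits. The block could not be fitted with age differences, which lie between blocks.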
